A study of Mus musculus with 947 samples.

Results

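Gonadal adipose tissue (GAT), the visceral white fat attached to the epididymis in male mice, was profiled by small RNA sequencing in 30 mice that had been surgically joined in pairs, so that the 2 partners shared a circulation for several weeks. These libraries were chosen by tissue, as all GAT columns of the parabiosis table, and they are 30 of the 947 samples of the series. The mice formed 4 groups. Isochronic young mice (IY, n = 8) were young males joined with young males in 4 pairs, heterochronic young mice (HY, n = 7) were young males joined with aged males, heterochronic aged mice (HA, n = 7) were the aged partners of HY, and isochronic aged mice (IA, n = 8) were aged males joined with aged males in 4 pairs. HA and IA mice were 19 months old and HY mice 4 months old, whereas 4 IY mice were 3 months old and 4 were 4.5 months old. The strains are stated in conflicting ways, since the reporting summary of the study gives C57BL/6JN for most of the IY, HA and IA mice that its sample sheet gives as C57BL/6J. By the sample sheet, which is followed here, IY mice were C57BL/6J, all HY mice were of another strain, and HA and IA mice were C57BL/6J except for 1 HA mouse and 2 IA mice of C57BL/6JN. HY and IY therefore differed in strain as well as in partner, and these cannot be told apart. The partners of an isochronic pair are separate animals with 1 shared circulation, and each was counted as 1 library.

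White fat stores lipid in adipocytes and also holds macrophages, endothelium and fibroblasts, and in the male gonadal depot it lies against the epididymal epithelium. MicroRNAs (miRNAs) are short RNAs that pair through their seed, bases 2 to 8, with messenger RNAs and lower their output. The Dlk1-Dio3 locus is an imprinted region of mouse chromosome 12 in which the maternal copy is transcribed into the long noncoding RNAs Meg3, Rian and Mirg, arrays of box C/D small nucleolar RNAs (snoRNAs) and one of the largest miRNA clusters of mammals, and the paternal copy expresses Dlk1, an inhibitor of adipogenesis.

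The sequences below belong to the miRNAs on which the comparisons turn. They were taken from RefSeq (GRCm38.p6, the build the study names as mm10) and run 5′ to 3′ with the seed in capitals. The first set are miRNAs of the Dlk1-Dio3 locus that were lower in IA than in IY, all on the plus strand, with miR-154-5p and miR-541-5p inside an intron of Mirg.
miR-540-5p: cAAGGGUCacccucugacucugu
miR-136-3p: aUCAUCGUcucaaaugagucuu
miR-127-3p: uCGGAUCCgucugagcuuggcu
miR-411-5p: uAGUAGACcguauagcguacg
miR-154-5p: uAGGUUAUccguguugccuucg
miR-541-5p: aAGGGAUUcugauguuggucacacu
Their positions were chr12:109586085-109586107 for miR-540-5p, chr12:109595366-109595387 for miR-136-3p, chr12:109592888-109592909 for miR-127-3p, chr12:109710190-109710210 for miR-411-5p, chr12:109738438-109738459 for miR-154-5p and chr12:109742422-109742446 for miR-541-5p. No seed was shared among these 6.

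The second set are miRNAs picked for HA against IA, some after their values were seen, and the only miRNA called between HA and HY. The set is not a ranking by p or by fold change.
miR-342-3p: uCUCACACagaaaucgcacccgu
miR-21a-5p: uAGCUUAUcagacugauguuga
miR-21a-3p: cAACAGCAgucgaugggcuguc
miR-223-3p: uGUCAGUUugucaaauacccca
miR-142a-3p: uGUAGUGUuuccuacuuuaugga
miR-222-3p: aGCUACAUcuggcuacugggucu
miR-221-3p: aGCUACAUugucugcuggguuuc
miR-196a-5p: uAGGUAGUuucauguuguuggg
miR-196b-5p: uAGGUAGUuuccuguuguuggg
miR-592-5p: aUUGUGUCaauaugcgaugaugu
miR-222-3p and miR-221-3p share the seed GCUACAU, and miR-196a-5p and miR-196b-5p share AGGUAGU. MiR-342-3p lies on the plus strand at chr12:108658680-108658702 in an intron of Evl, outside the Dlk1-Dio3 locus. Both arms of miR-21a lie on the minus strand within an exon of Vmp1, miR-21a-5p at chr11:86584120-86584141 and miR-21a-3p at chr11:86584082-86584103. MiR-223-3p lies at chrX:96242884-96242905 (plus), miR-142a-3p at chr11:87756903-87756925 (plus, in an intron of Mir142hg), miR-222-3p at chrX:19146901-19146923 (minus) and miR-221-3p at chrX:19146307-19146329 (minus). MiR-196b-5p lies at chr6:52230129-52230150 (minus, within an exon of Hoxa9) and miR-592-5p at chr6:27936711-27936733 (minus, within an exon of Grm8). The mature miR-196a-5p matched 2 loci, of which 1 is chr11:96265187-96265208 (plus).

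Values are given in rpmm, the deposited unit, in which the reads of an RNA are scaled to all mapped reads of its library. Mapped reads ranged from 9.52 to 34.5 M (1e6 reads) per library with a median of 20.2 M, and 3977 of 5248 RNAs passed the filter of 1 rpmm in at least 3 libraries, 621 of them miRNAs. All 26 miRNAs of a list for adipocytes and adipogenesis had a median of at least 1 rpmm in every group, and all 7 of the white fat identity list did too. The summed adipocyte list was 48919 to 80940.0 rpmm in IY, 37315 to 87804 in HY, 33053 to 77478 in HA and 26019 to 79178 in IA. Liver of the same cohort, in comparison, had lower levels for all 7 white fat miRNAs and for 19 of the 26 adipocyte miRNAs, every group median in GAT being above every one in liver, while both liver miRNAs were lower in GAT. MiR-196b-5p had group medians of 72.2 to 375 rpmm in GAT and 0.242 to 0.353 in liver.

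Some libraries stood apart in markers of neighbouring tissue. The 11 miRNAs of an epithelium list (the miR-200 family, miR-203, miR-205 and the miR-183 cluster among them) summed to between 592 and 6148 rpmm in IY with a median of 1805, whereas the medians were 2115 in HY (442 to 23633), 1818 in HA (388 to 24030) and 5153 in IA (604 to 37505). The sum was 8000 rpmm or more in 0 IY, 3 HY, 2 HA and 4 IA libraries. HA mouse 1A also held 17301 rpmm of the 2 liver miRNAs, against 29.8 to 242 in the other 6 HA libraries, and HA 1A and IA 7A had the highest rRNA shares, 45.8% and 45.4%. Sequencing pools were shared unevenly, since 7 of 8 IY libraries came from pool Para-11 and 1 from Para-12, and IA libraries from 3 pools.

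**Figure D1:**
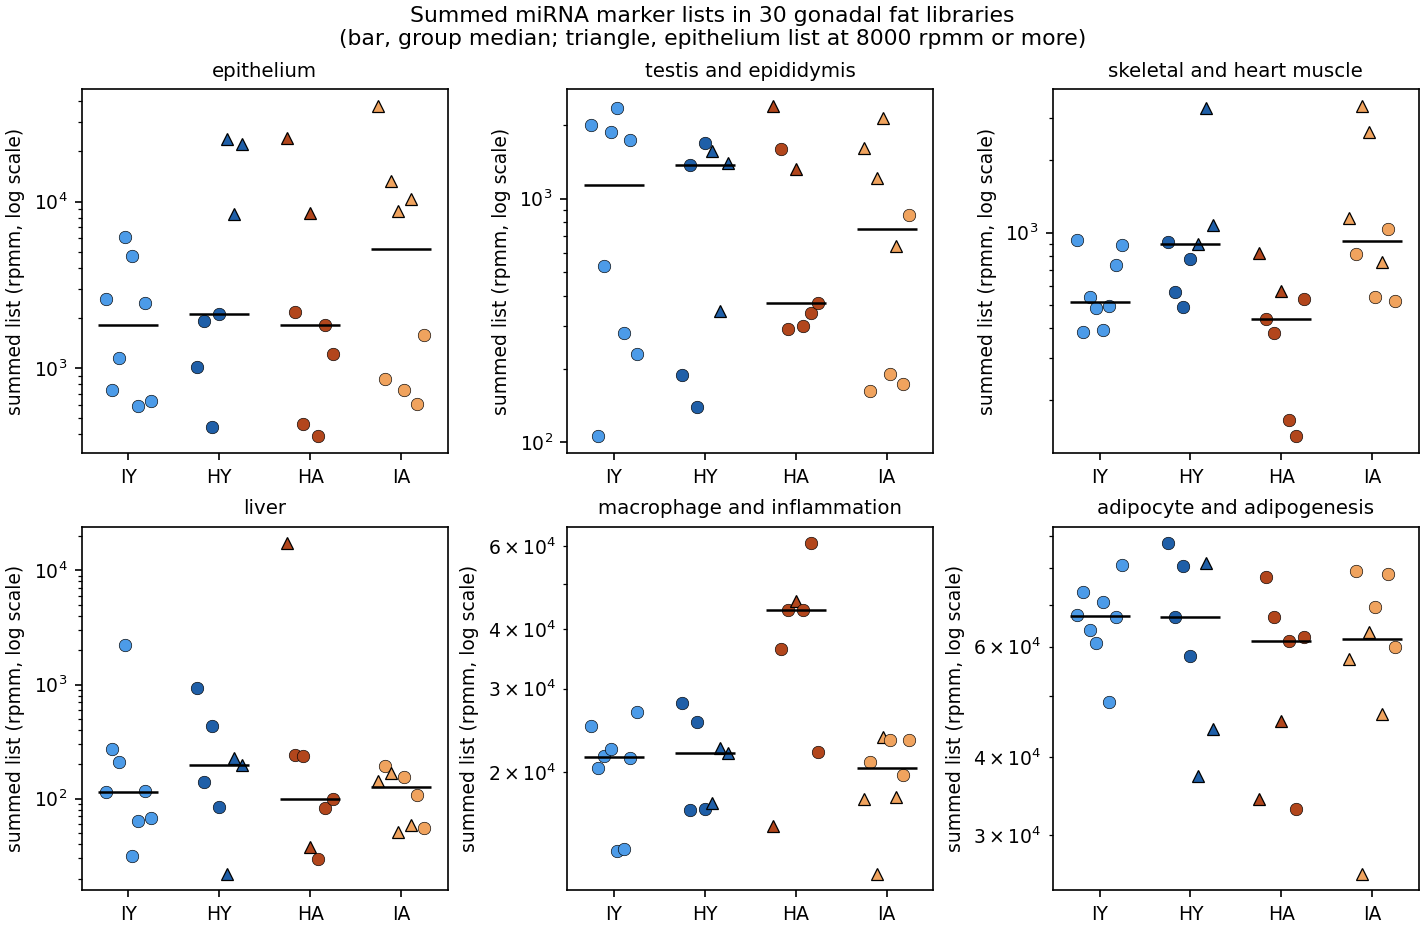
Summed rpmm (log axis) of 6 miRNA marker lists in each of the 30 GAT libraries, by group, with the group median as a bar and libraries at or above 8000 rpmm of the epithelium list as triangles. The epithelium list reached 8000 rpmm in 0 IY and 4 IA libraries, and the macrophage and inflammation list had a median of 43958 rpmm in HA against 20342 in IA.

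The first comparison, IA against IY, asked how fat of aged mice differed from that of young mice when both had a partner of their own age. It gave the only sizeable set of calls. Small RNAs of the Dlk1-Dio3 locus were lower in IA, 23 miRNAs together with 2 snoRNAs and the long noncoding RNAs Rian and Mirg, by 1.25 to 0.64 on the log2 scale, and 1 miRNA outside the locus, miR-592-5p, was higher. In numbers, 30 of 3977 RNAs (0.754%) were called at an adjusted p under 0.05 by limma, 29 lower and 1 higher, and all 29 lower entries were RNAs of the Dlk1-Dio3 locus. Of the 29, 4 entries were the snoRNAs AF357428 and DQ267102, each listed with 2 transcripts of identical values, and 27 entries were placed by the annotation between Dlk1 and Dio3 (828 kb), miR-376c-3p and miR-485-5p being known as members by name only.

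MiR-540-5p, encoded in the proximal part of the cluster, had the largest difference of the 30. Its level was 7.40 to 12.4 rpmm in IY (median 8.72) and 1.74 to 6.35 in IA (median 3.12), so the 2 groups did not overlap. Log2 fold changes below are of rpmm + 1, which understates the change of RNAs at low levels. For miR-540-5p the log2 fold change was -1.25 (adjusted p 0.023 by limma, SE 0.23).

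The other members behaved alike, over a wide range of levels. MiR-136-3p was at 9.56 to 22.2 rpmm in IY (median 16.4) and at 4.01 to 12.5 in IA (median 6.77), with a log2 fold change of -1.18 (adjusted p 0.027 by limma, SE 0.25). MiR-541-5p was at 39.1 to 74.6 rpmm in IY (median 48.8) and at 13.7 to 35.6 in IA (median 22.1), again without overlap (log2 fold change -1.15, adjusted p 0.028 by limma, SE 0.25). MiR-154-5p was at 23.9 to 81.0 rpmm in IY (median 34.98) and at 9.504 to 23.8 in IA (median 15.4), which is also a separation of the groups, though by a narrow margin (log2 fold change -1.22, adjusted p 0.033 by limma, SE 0.28). Of these 3, miR-136-3p alone had libraries of IA at the level of the lowest IY library.

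The more abundant members showed the same difference. MiR-127-3p, which is processed from the strand antisense to the retrotransposon-derived gene Rtl1, was at 137 to 271 rpmm in IY and 62.3 to 158 in IA (log2 fold change -1.11, SE 0.24). MiR-411-5p was at 123 to 308 rpmm in IY and 54.1 to 118 in IA (-1.06, SE 0.25). MiR-136-5p was at 114 to 219 rpmm in IY and 55.9 to 114 in IA (-1.05, SE 0.22). The groups overlapped for miR-127-3p, touched for miR-136-5p and did not overlap for miR-411-5p.

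RNAs of other classes from the same locus were lower too. The snoRNA AF357428 was at 103 to 217 rpmm in IY (median 162) and 52.9 to 118 in IA (median 70.3), a log2 fold change of -1.05 (adjusted p 0.040 by limma, SE 0.25). Mirg, the host transcript of the distal miRNAs, was at 12.5 to 25.5 rpmm in IY and 5.52 to 15.4 in IA, a log2 fold change of -0.93 (adjusted p 0.048 by limma, SE 0.23). Reads of Mirg and Rian are fragments of long transcripts in a small RNA library, and many Rian transcripts shared the same reads.

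**Figure D2:**
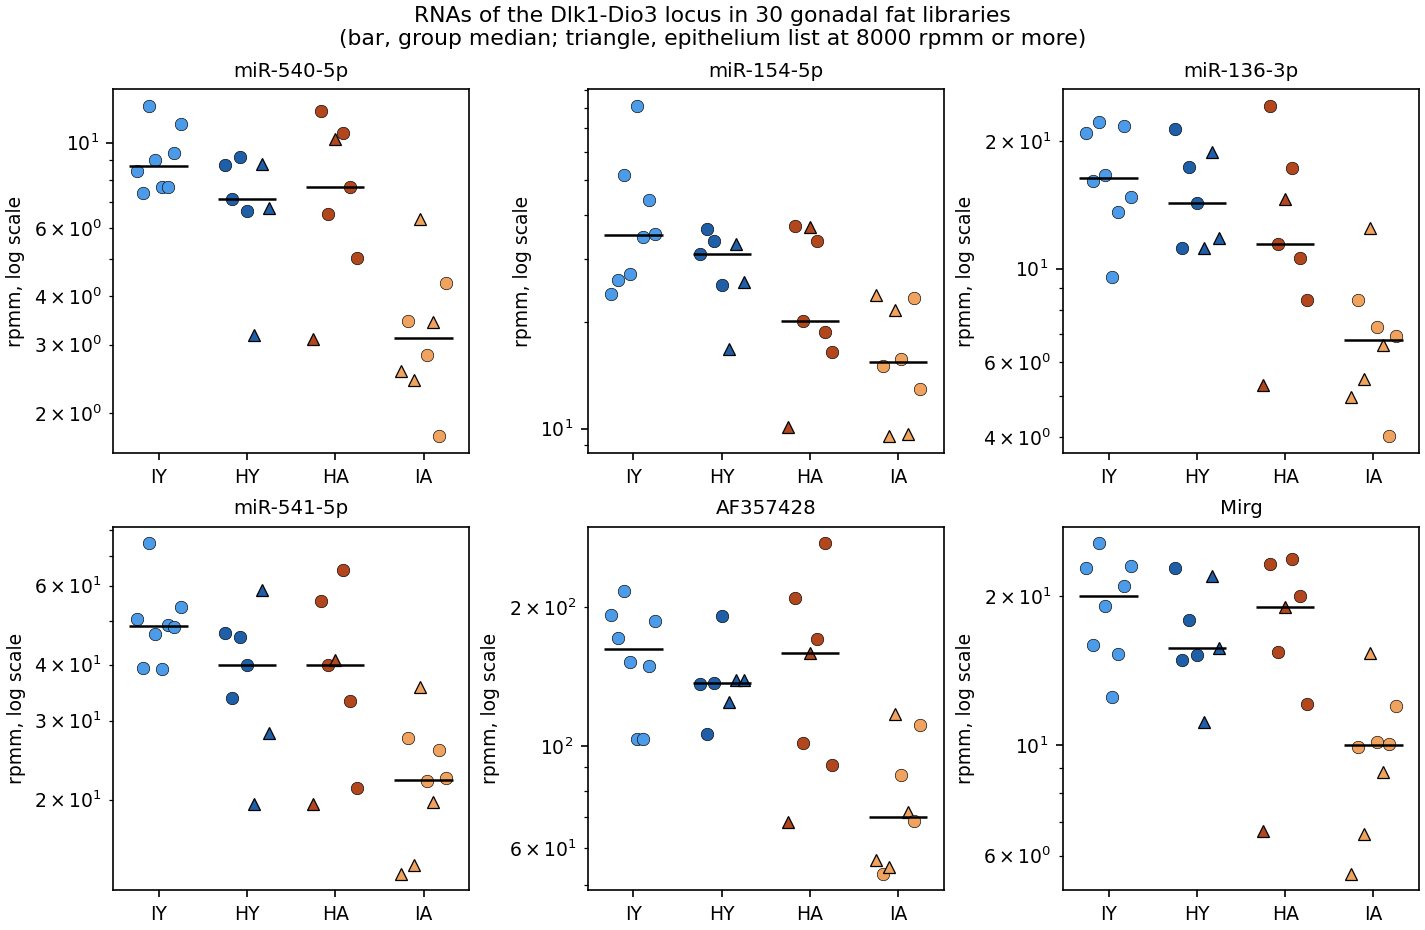
Level in rpmm (log axis) of 4 miRNAs, a snoRNA and a long noncoding RNA of the Dlk1-Dio3 locus in each of the 30 GAT libraries, by group, with the group median as a bar and libraries of high epithelium sum as triangles. IA libraries lay lowest, as for miR-540-5p with a median of 3.12 rpmm against 8.72 in IY, and HY and HA medians lay between or near IY.

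The difference extended over the whole cluster. Of 100 miRNA names listed for the locus, 73 were in the table and 53 passed the filter, and of these 23 were called lower, 46 had an unadjusted p under 0.05 in the lower direction (background 3.55% of all RNAs) and 53 of 53 had a lower estimate. Their median log2 fold change was -0.77, against 0.09 over all RNAs. The summed list was 938 to 1665 rpmm in IY (median 1179) and 432 to 918 in IA (median 621), without overlap. By position on the plus strand, with RNAs of identical values counted once, 99 of 127 RNAs of the locus had an unadjusted p under 0.05 in the lower direction, 10 of 12 snoRNAs among them (median log2 fold change -0.82). When miRNAs were tested alone, 39 of 621 (6.28%) were called, 35 lower and 4 higher, and all 35 lower miRNAs belonged to this list. In bulk tissue, fewer cells of a type that expresses the locus and less RNA per cell cannot be told apart.

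**Figure D3:**
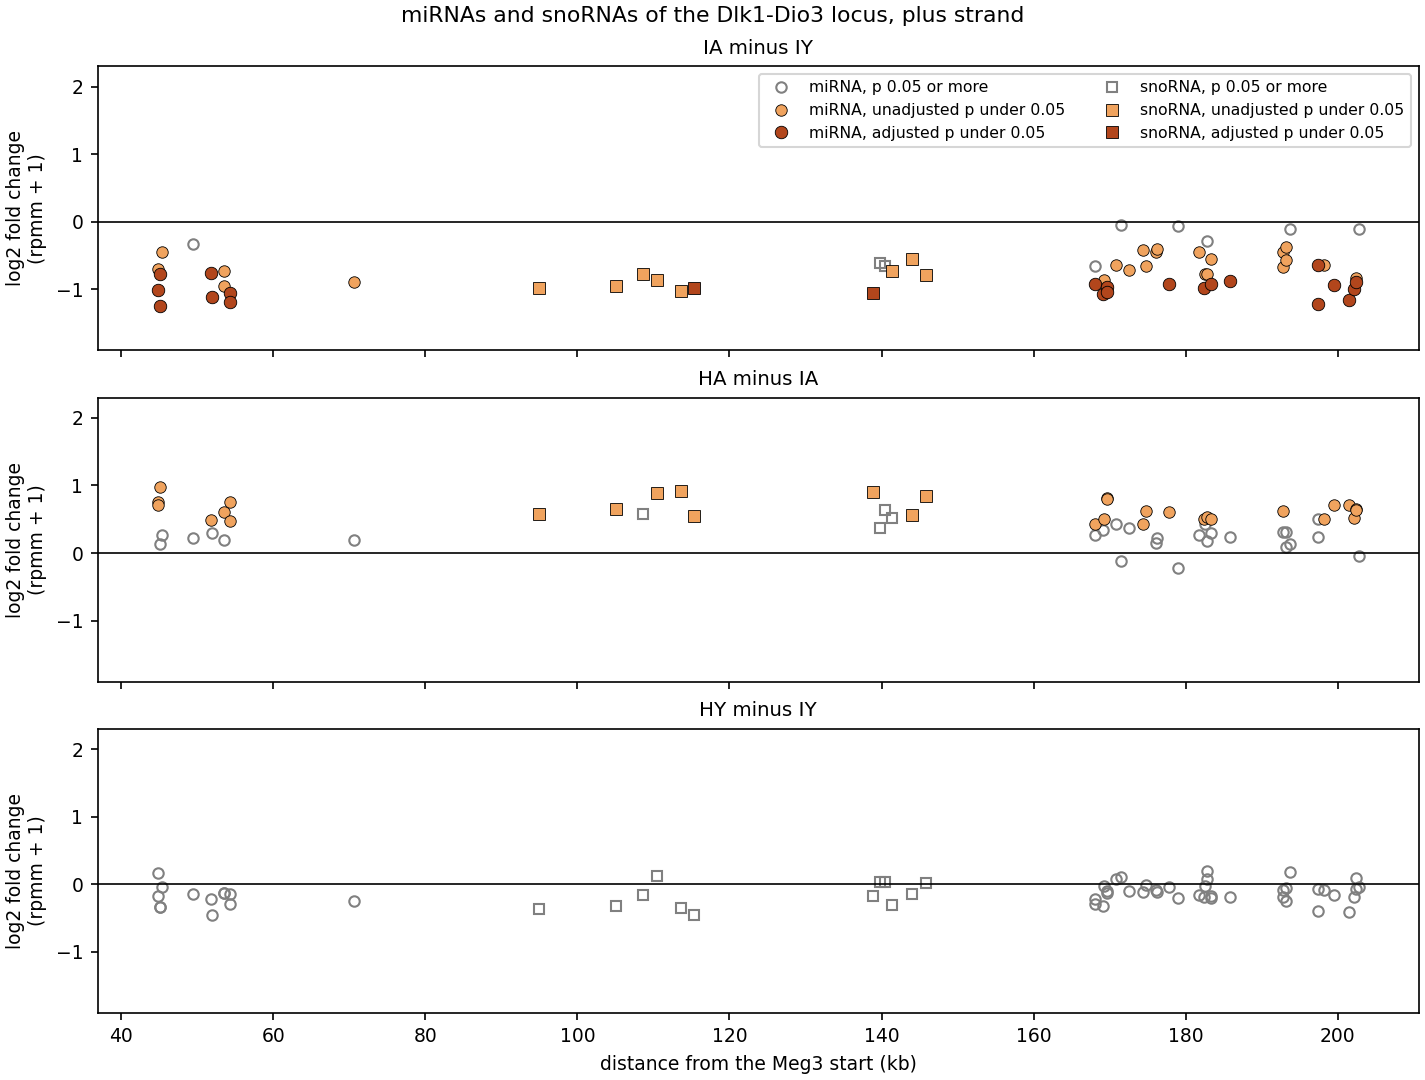
Log2 fold change of rpmm + 1 for each miRNA (circles) and snoRNA (squares) on the plus strand of the Dlk1-Dio3 locus, by distance from the Meg3 start in kb, in 3 contrasts; open symbols have an unadjusted p of 0.05 or more, pale filled symbols one under 0.05 and dark filled symbols an adjusted p under 0.05. All symbols lie below 0 in IA minus IY and most lie above 0 in HA minus IA, with medians for miRNAs of -0.76 and 0.43.

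The calls for single RNAs were less stable than the median of the list. No RNA was called with the pool as a covariate, with DESeq-type median-ratio scaling, with the partners of isochronic pairs averaged, or by edgeR on the recovered reads (275 at an unadjusted p under 0.05). The list median under these settings was -0.66, -0.85, -0.77 and -1.07 on the log2 scale. Epithelial markers were higher in IA, and without the 9 libraries at or above 8000 rpmm the list median was -0.74 with 3 RNAs called. In libraries under 8000 rpmm the summed list was 938 to 1665 rpmm in 8 IY and 554 to 700 in 4 IA mice, and in the 4 IA mice at or above it 432 to 918.

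The same locus was read in an independent set of unjoined mice, the aging cohort of the series. The paper gives these mice a strain other than the one the sample sheet gives for IY mice. The mice compared were 3 males and 2 females at 3 months (n = 5) and 2 of each sex at 21 months (n = 4). All parabiosis mice were male, so the ranges below, unlike those above, mix the sexes in this cohort. There 1 of 3679 RNAs (0.0272%) was called, miR-504-3p, higher at 21 months (log2 fold change 1.17, adjusted p 0.022 by limma, SE 0.22), and no RNA of the locus was. Of 65 listed miRNAs tested, 62 had a lower estimate at 21 months and 31 an unadjusted p under 0.05 in that direction (background 5.22%), with a median log2 fold change of -0.68 against -0.05 over all RNAs, and -0.65 in males alone. MiR-136-3p was at 24.8 to 39.5 rpmm at 3 months and 8.18 to 12.7 at 21 months. MiR-540-5p was at 17.8 to 27.9 rpmm at 3 months and 2.90 to 14.3 at 21 months, so the age groups did not overlap for either miRNA. MiR-127-3p, in contrast, was at 224 to 328 and 144 to 368 rpmm, with overlap.

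MiR-592-5p, the only RNA higher in IA, was at 0.232 to 0.984 rpmm in IY (median 0.697) and 0.939 to 1.86 in IA (median 1.55), with a slight overlap. The log2 fold change was 0.60 (adjusted p 0.048 by limma, SE 0.15). Its levels are within a few rpmm of 0, and it was chosen for description after its values were seen.

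The 8 miRNAs that the study linked with age across tissues, a list drawn from other libraries of the series to which miR-29b-3p was added here for its family, had 2 members called lower in IA, miR-541-5p (above) and miR-300-3p, both of the Dlk1-Dio3 locus, and no member called higher. MiR-300-3p was at 16.7 to 26.8 rpmm in IY and 6.89 to 14.5 in IA (log2 fold change -0.92, adjusted p 0.048 by limma, SE 0.22). The miR-29 family, which targets collagens and other matrix genes, overlapped between the groups. MiR-29a-3p was at 3969.8 to 10937 rpmm in IY and 5359 to 11774 in IA (log2 fold change 0.08, 95% interval -0.37 to 0.52). MiR-155-5p, an inflammation miRNA of activated leukocytes, was at 86.6 to 157 rpmm in IY and 72.4 to 235 in IA (log2 fold change 0.39, 95% interval -0.20 to 0.98). Neither interval excluded 0. Other members that were not called had 95% intervals that did exclude 0. They were miR-184-3p (log2 fold change 0.995, interval 0.076 to 1.91), miR-1895 (0.76, 0.045 to 1.48) and miR-487b-3p (-0.57, -0.96 to -0.18). Their adjusted p was 0.57, 0.57 and 0.25 by limma.

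The second comparison, HA against IA, asked whether fat of aged mice differed with a young instead of an aged partner. No RNA was called among 3977 (0%) by limma, where 274 had an unadjusted p under 0.05, and edgeR on the recovered reads called 0 as well with 314 at that level. Among miRNAs with a group mean of at least 10 rpmm, the smallest p by limma belonged to miR-342-3p, miR-196b-5p and miR-21a-3p. When the 621 miRNAs were tested alone, 24 (3.86%) were called, 20 higher in HA and 4 lower, and none of them kept its call over all RNAs.

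MiR-342-3p, a miRNA of lymphoid and myeloid cells, was at 84.7 to 666 rpmm in HA (median 406), 61.2 to 225 in IA (median 85.3), 87.2 to 172 in HY (median 107) and 68.5 to 96.8 in IY (median 83.2). Within HA, 5 of the 7 libraries (2A, 5A, 11A, 12A and 14A) lay between 380.7 and 666 rpmm, above every library of the other groups, and the other 2, 1A and 20A, lay at 84.7 and 108. By the sample sheet 20A was the 1 HA mouse of C57BL/6JN, and it was also the 1 HA library of pool Para-12. Strain and pool cannot be told apart in this mouse. The log2 fold change of HA against IA was 1.64 (SE 0.36, adjusted p 0.19 over all RNAs and 0.031 among miRNAs alone, by limma).

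The same 5 HA libraries were high for further miRNAs of myeloid cells and inflammation, of which miR-21a-5p, miR-223-3p and miR-142a-3p, like miR-133a-3p, miR-222-3p and miR-540-5p in this contrast, were chosen after their values were seen. MiR-21a-5p, induced in inflammation and among the most abundant miRNAs of the tissue, was at 10037 to 43391 rpmm in HA (median 28460.3) and 8979 to 14980.0 in IA (median 11715), with those 5 at 23969 rpmm or more and 1A and 20A at 10037 and 12166 (log2 fold change 0.93, adjusted p 0.19 by limma, SE 0.24). Its passenger strand miR-21a-3p was at 16.2 to 203 rpmm in HA and 9.35 to 24.4 in IA, the 5 being at 41.9 or more (log2 fold change 1.41, adjusted p 0.19 by limma, SE 0.35). MiR-223-3p, a marker of granulocytes and macrophages, was at 121 to 2498 rpmm in HA (median 895) and 109 to 448 in IA (median 327), the 5 being at 792 or more (log2 fold change 1.31, adjusted p 0.40 by limma, SE 0.40). The groups overlapped for all 4 miRNAs because of 1A and 20A.

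MiR-142a-3p, which is restricted to blood-derived cells, was at 323 to 4165 rpmm in HA (median 3479) and 360 to 1829 in IA (median 1059), and in this case only 4 HA libraries lay above all IA libraries. Of the list for macrophages and inflammation, 8 of 15 tested members had an unadjusted p under 0.05 in the higher direction (background 4.12%) and none in the lower (2.77%), and their median log2 fold change was 0.78 against -0.06 over all RNAs. Without the libraries of high epithelium sum 6 of 15 were higher and 1 lower at that level with a median of 0.41, and without HA 1A and IA 7A 8 of 15 were higher with a median of 0.56. In these 2 fits 366 and 315 of 3977 RNAs were at that level in either direction, with medians of -0.10 and -0.04. The summed list was 15404 to 60876 rpmm in HA (median 43958) and 12189 to 23678 in IA (median 20342). In the 7-member lymphocyte list the 2 arms of miR-342 were the only ones with an unadjusted p under 0.05 in the higher direction. In the lower direction 1 member had such a p, and the median log2 fold change of the list was -0.07 (0.00092 with median-ratio scaling). MiR-150-5p, a typical miRNA of mature lymphocytes, was at 76.1 to 900 rpmm in HA and 215 to 2355 in IA. The summed epithelium list, for comparison, was lower in HA by its median, 1818 against 5153 rpmm, and its part in these differences was not tested.

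Both miR-196b-5p and miR-133a-3p had lower estimates in HA. MiR-196b-5p, encoded in the HoxA cluster, was at 24.4 to 233 rpmm in HA (median 72.2) and 103 to 1762 in IA (median 375), a log2 fold change of -2.46 (adjusted p 0.19 by limma, SE 0.56). MiR-133a-3p, a muscle miRNA, was at 49.6 to 282 rpmm in HA and 259.9 to 1302 in IA (log2 fold change -1.75, adjusted p 0.19 by limma, SE 0.44). The 4 IA libraries of high epithelium sum had the 4 highest values of miR-196b-5p, up to 1762 rpmm in 7A, and 3 of the 4 were highest for miR-133a-3p, but the part of adjoining tissue in the difference was not tested. With the epithelium sum as a covariate miR-196b-5p was the only RNA called (log2 fold change -2.14, adjusted p 0.044 by limma, SE 0.41, and 0.028 to 0.88 over all alternatives). Over the 7-member white fat list, 4 had an unadjusted p under 0.05 in the lower direction (background 2.77%) and the median log2 fold change was -0.89. Over 6 tested muscle miRNAs 3 did, with a median of -0.92. Without the libraries of high epithelium sum, 3 of the 7 and 3 of the 6 had such a p, and the medians were -0.75 and -1.01. In that fit 366 of 3977 RNAs had an unadjusted p under 0.05 in either direction, and the median over all RNAs was -0.10. The summed white fat list was highest in HY 14B (19337 rpmm), IA 7B (14859) and IA 7A (13567). The same libraries had the highest muscle sums (3306, 2631 and 3367 rpmm). Whether a lower white fat list in HA means less white fat was not tested, nor was the source of the difference.

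**Figure D4:**
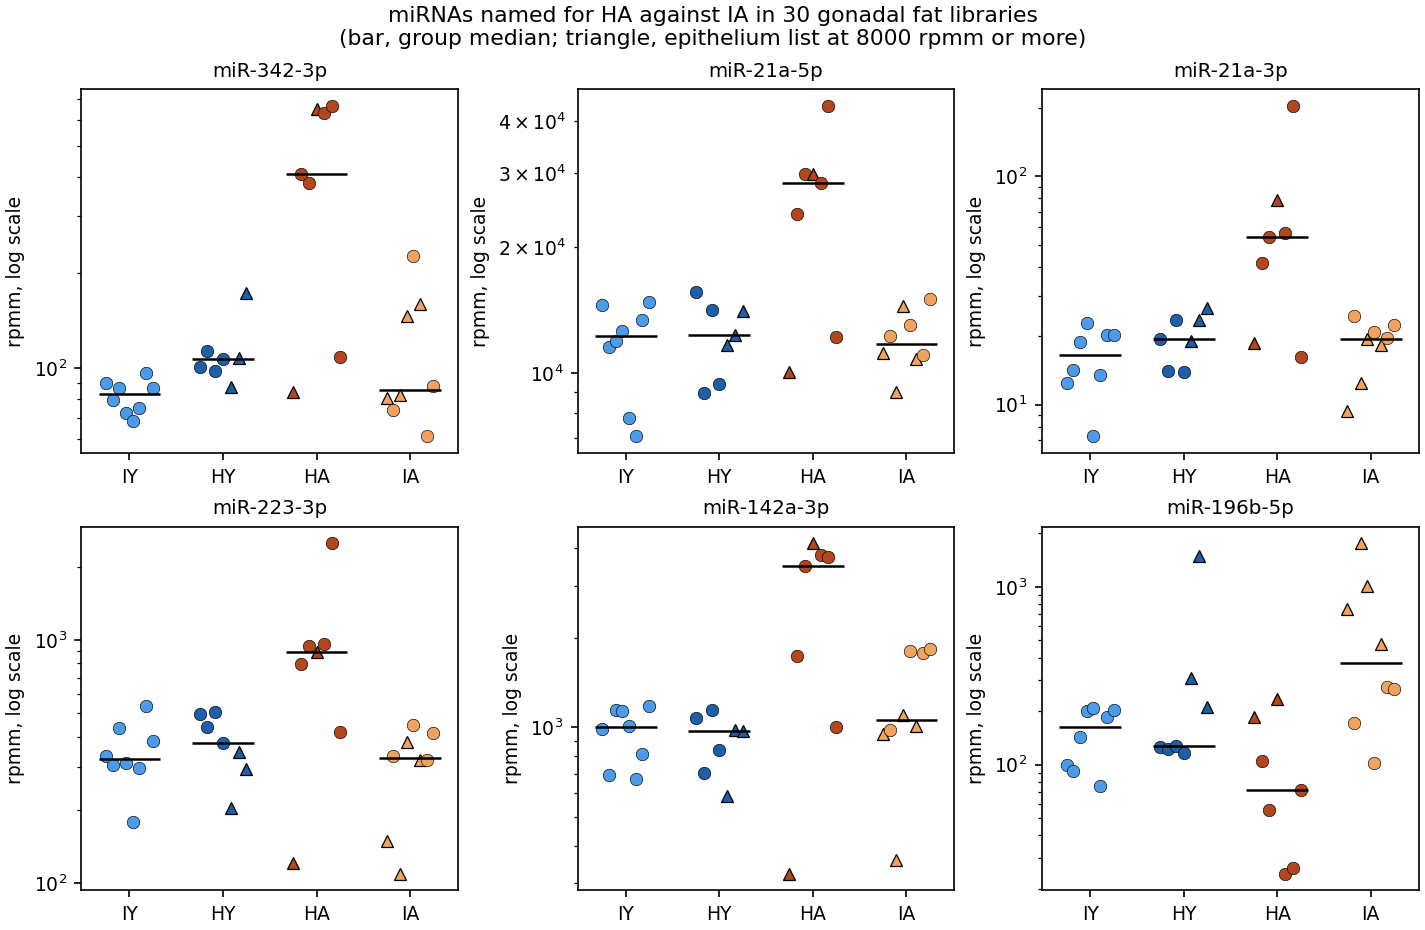
Level in rpmm (log axis) of 6 miRNAs in each of the 30 GAT libraries, by group, with the group median as a bar and libraries of high epithelium sum as triangles. For miR-342-3p, 5 HA libraries lay at 380.7 to 666 rpmm and the 2 others, 1A and 20A, at 84.7 and 108, within the range of the other groups.

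The Dlk1-Dio3 miRNAs, lower in IA than in IY, were at intermediate levels in HA. The summed list was 407 to 1305 rpmm in HA (median 871) and 432 to 918 in IA (median 621), and the groups overlapped. None of the 53 miRNAs was called in HA against IA, 25 had an unadjusted p under 0.05 in the higher direction (background 4.12%) and 50 had a higher estimate, with a median log2 fold change of 0.43 against -0.06 over all RNAs. MiR-540-5p was at 3.11 to 12.1 rpmm in HA (median 7.66) and 1.74 to 6.35 in IA, with a log2 fold change of 0.98, with an SE of 0.24 (adjusted p 0.19 over all RNAs and 0.031 among miRNAs alone, by limma, and 0.025 to 0.88 over all alternatives). This contrast and IA against IY share the IA libraries, so the values of each stand side by side and neither supports the other. The lowest HA library for the list was 1A.

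The number of calls in HA against IA also depended on single libraries. Without HA 1A and IA 7A, the libraries of highest rRNA share, 5 miRNAs were called higher in HA, miR-342-3p, miR-223-3p, miR-540-5p, miR-299a-5p and miR-21a-5p, a choice made after the data were seen. The log2 fold change of miR-342-3p was then 1.91 (adjusted p 0.0084 by limma, SE 0.33) and that of miR-223-3p 1.53 (adjusted p 0.035 by limma, SE 0.31, and 0.025 to 0.89 over all alternatives). Leaving out pair 1 gave 12 calls and leaving out pair 20 gave 3, and leaving out any other pair gave 0. Over 33 alternative settings the adjusted p of miR-342-3p ranged from 0.0046 to 0.88, with its log2 fold change between 1.46 and 1.96.

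The third comparison, HY against IY, asked whether fat of young mice differed with an aged partner. No RNA was called among 3977 (0%), 48 had an unadjusted p under 0.05 by limma, and edgeR called 0 with 239 at that level. The 3 miRNAs of smallest p among those of at least 10 rpmm were miR-149-5p and 2 members of the Sfmbt2 cluster, a rodent-specific array of repeated miRNAs in an intron of the Sfmbt2 gene. MiR-149-5p was at 94.7 to 219 rpmm in HY (median 139) and 40.1 to 147 in IY (median 88.8), with a log2 fold change of 0.86 (adjusted p 0.89 by limma, SE 0.26). MiR-467e-5p was at 29.1 to 119 rpmm in HY (median 36.9) and 13.9 to 39.8 in IY (median 26.6), with a log2 fold change of 0.90 (adjusted p 0.89 by limma, SE 0.35). MiR-467c-5p was at 8.43 to 46.6 rpmm in HY and 5.57 to 11.4 in IY, and all 3 overlapped between the groups.

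Of 50 Sfmbt2 miRNAs tested, 11 had an unadjusted p under 0.05 in the higher direction (background 0.83%) and 0 in the lower (background 0.377%). Their reads map to near-identical copies, so the split among members is uncertain. The median log2 fold change of the list was 0.47 in HY against IY and -0.09 over all RNAs, and the summed list was 247 to 1276 rpmm in HY and 186 to 357 in IY. Epithelial markers moved with it, the epithelium list having a median of 1.28 in this contrast with 9 of 11 estimates higher, and 3 HY but 0 IY libraries reaching 8000 rpmm. Without the libraries of high epithelium sum, a choice made after the data were seen, the Sfmbt2 list turned in direction, with 0 of 50 members at an unadjusted p under 0.05, 18 higher estimates and a median of -0.09. MiR-467e-5p then had a log2 fold change of 0.25 and miR-467c-5p one of 0.20, while miR-149-5p had one of 0.51. The Dlk1-Dio3 list had a median log2 fold change of -0.13 in HY against IY, with 1 of 53 at an unadjusted p under 0.05, and the macrophage list one of -0.03 (0.081 with median-ratio scaling) with 0 of 15.

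The fourth comparison, HA against HY, set the aged and young partners of the same pairs against each other. It called 1 of 3977 RNAs (0.0251%), miR-592-5p, which was higher in HA. MiR-592-5p was at 1.26 to 3.45 rpmm in HA (median 1.80) and 0.196 to 0.687 in HY (median 0.516), without overlap. The log2 fold change was 0.96 (adjusted p 0.0037 by limma, SE 0.16). Over 33 alternatives its adjusted p ranged from 0.00022 to 0.95, and it was called in 28. Partners shared a pair number, and with it as a replicate block 0 RNAs were called, 83 having an unadjusted p under 0.05. In IY the same miRNA was at 0.232 to 0.984 rpmm and in IA at 0.939 to 1.86, so its order by median was HY, IY, IA and HA, with HY and IY overlapping and IA and HA overlapping.

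In HA against HY, 8 of 15 members of the macrophage list had an unadjusted p under 0.05 in the higher direction (background 1.91%) and 0 in the lower (background 0.855%), with a median log2 fold change of 0.67 against 0.14 over all RNAs. Without HA 1A and IA 7A, 11 RNAs were called higher in HA, among them miR-342-3p (log2 fold change 1.88, SE 0.33) and miR-142a-3p (1.60, SE 0.28). Of the white fat list, 4 of 7 members had an unadjusted p under 0.05 in the lower direction, with a median log2 fold change of -0.85. Among HY libraries 14B had the highest sum of this list (19337 rpmm) and also the highest muscle sum (3306 rpmm). For the Dlk1-Dio3 list the median log2 fold change was -0.20, and 1 of 53 members had an unadjusted p under 0.05. This contrast and HA against IA share the HA libraries, so their values are not separate evidence.

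Whether the contrast of partners differed between aged and young mice was tested directly as HA minus IA less HY minus IY. No RNA was called (0%) by limma, with 134 at an unadjusted p under 0.05. EdgeR on the recovered reads called 3 entries with an adjusted p of 0.035, 2 of Gm26871 and miR-137-3p, all lower, with 165 at an unadjusted p under 0.05. The Dlk1-Dio3 list had 22 of 53 members at an unadjusted p under 0.05 in the higher direction and a median log2 difference of 0.55 against 0.07 over all RNAs. Of all RNAs, 134 of 3977 had such a p by limma in either direction. The difference contains the IA and IY libraries of the first comparison, in which this list was lower in IA. Its values for the list are therefore not separate evidence. MiR-540-5p had a difference of 1.32 (adjusted p 0.42 by limma, SE 0.34) and miR-342-3p one of 1.21 (SE 0.50, adjusted p 1.00 by limma).

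The other marker and family lists, apart from the 2 age-linked miRNAs above, held no called RNA in any of the 4 contrasts, and their medians are given on the log2 scale. In IA against IY the lists with the lowest medians after the Dlk1-Dio3 locus were endothelium (-0.73, 2 of 3 members lower at an unadjusted p under 0.05), red blood cell (-0.72, 3 of 5 lower), Gnas locus (-0.55, 3 of 3 lower), liver (-0.34), gut and kidney (-0.30), lymphocyte (-0.15), let-7 family (-0.14) and adipocyte (-0.14). The highest were epithelium (1.31, 0 of 11), skeletal and heart muscle (0.88, 3 of 6 higher; background 4.78%), neuron (0.73, 2 of 10 higher), testis and epididymis (0.70, 0 of 22), Sfmbt2 cluster (0.39, 5 of 50 higher), macrophage and inflammation (0.20), white fat (0.17), miR-17-92 and paralogs (0.11), fibroblast (0.07), the age-linked miRNAs with miR-29b-3p (0.07) and miR-34 family (0.03). Lists of epithelium, testis and epididymis had high medians without a member past that threshold, since their levels differed widely within each group. MiR-451a, the most abundant miRNA of red blood cells, was at 425 to 2179 rpmm in IY and 159 to 1438 in IA (log2 fold change -1.10, adjusted p 0.50 by limma). MiR-126a-3p of endothelium was at 10136 to 16390.0 rpmm in IY and 1820.1 to 15064 in IA (log2 fold change -0.73, adjusted p 0.57 by limma). Both overlapped between the groups, with the lowest libraries in IA.

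MiR-200c-3p, the most abundant of the epithelium list, ran from 22.1 to 1882 rpmm in IY and from 24.8 to 14185 in IA. MiR-26a-5p, an abundant miRNA of adipocytes, was at 18595 to 30989 rpmm in IY and 13011 to 30578 in IA (log2 fold change -0.16, 95% interval -0.65 to 0.32). With median-ratio scaling the median over all RNAs moved from 0.09 to -0.04 in IA against IY and from 0.14 to -0.04 in HA against HY, and the IA against IY medians of the fibroblast list (-0.075), the age-linked miRNAs (-0.077), the miR-34 family (-0.11) and miR-17-92 with its paralogs (-0.043) changed sign.

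In HA against IA, where 4.12% of all RNAs were higher and 2.77% lower at an unadjusted p under 0.05 with a median of -0.06, fibroblast miRNAs had a median of 0.35 with 3 of 10 members higher, the Gnas locus 0.61 with 3 of 3 higher, the miR-34 family 0.37 with 2 of 7 higher, the age-linked miRNAs 0.32 with 3 of 9 higher and 1 lower, and miR-17-92 with its paralogs 0.25 with 3 of 13 higher. The red blood cell list had a median of 0.42, although the 2 of 5 members past that threshold were lower. Adipocyte miRNAs went both ways, 4 of 26 higher and 2 lower with a median of -0.07. Among the 4 were miR-221-3p and miR-222-3p, which are known to inhibit adipocyte differentiation and share a seed. MiR-222-3p was at 54.8 to 375 rpmm in HA (median 153) and 44.99 to 103 in IA (median 78.1), with an adjusted p of 0.19 by limma, and miR-221-3p at 47.2 to 244 and 22.9 to 76.0 rpmm. MiR-34a-5p, a target of p53, was at 1139 to 3473 rpmm in HA and 845 to 1704 in IA.

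**Figure D5:**
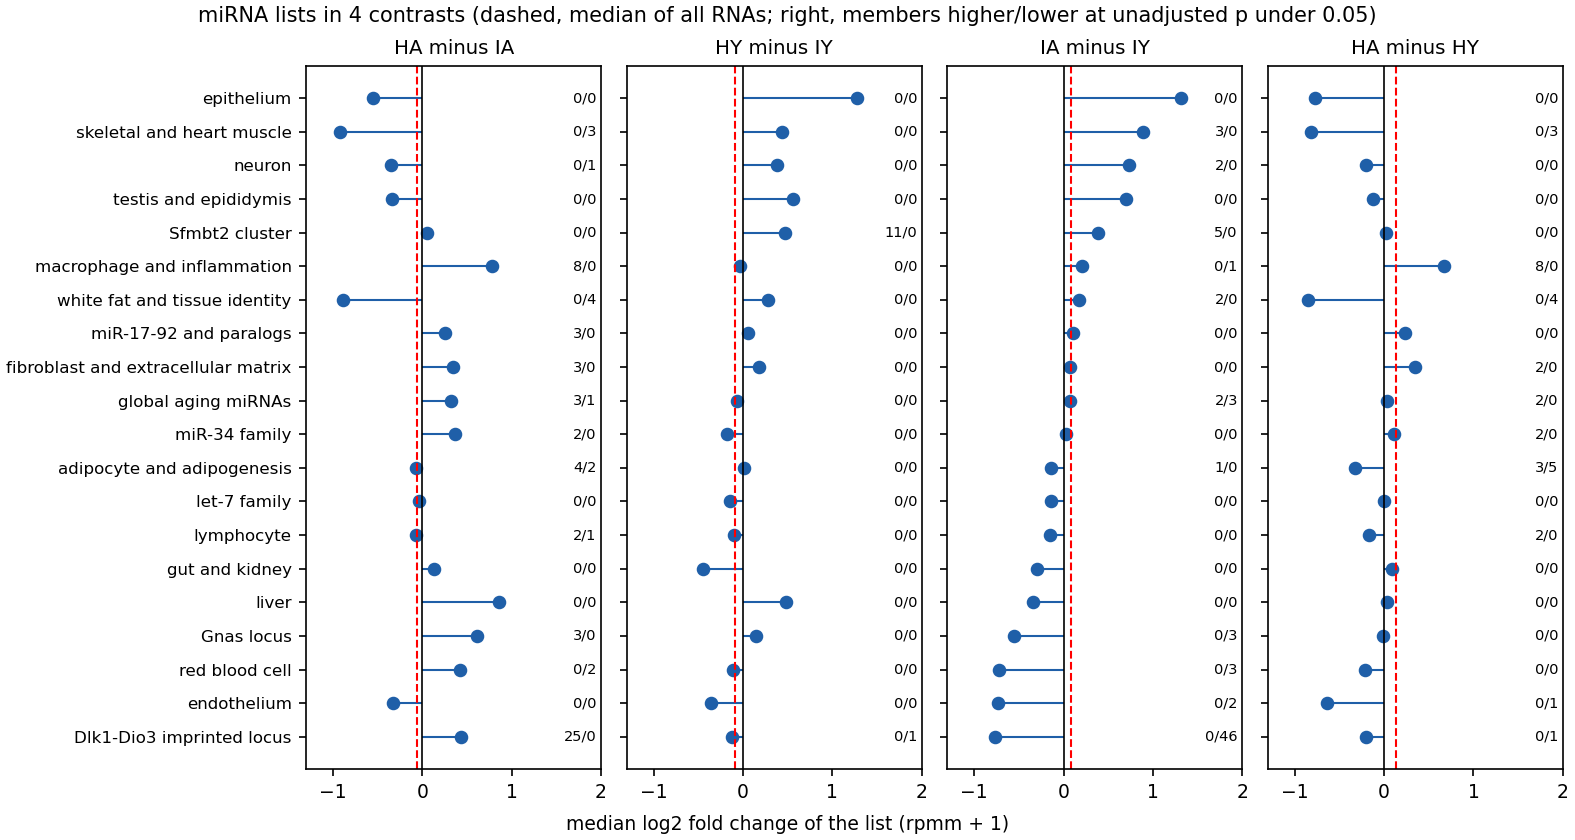
Median log2 fold change of rpmm + 1 of 20 miRNA lists in 4 contrasts (points), with the median of all RNAs as a dashed line and, at the right, how many members were higher/lower at an unadjusted p under 0.05. The Dlk1-Dio3 list has the lowest median in IA minus IY, -0.77 with 46 members lower, and 25 members higher in HA minus IA.

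No RNA class passed the test for a different share of the libraries. MiRNAs took 9.92% to 36.1% of the summed signal, with group medians between 16.8% and 17.7%, and rRNA fragments 14.01% to 45.8%. In 40 two-sided exact permutation tests over 4 contrasts and 10 classes, 0 passed adjustment and 1 had an unadjusted p under 0.05, that of piRNAs in HA against IA (mean 0.00102% against 0.00132%, exact permutation p 0.026, adjusted 1.00). These tests took each library as independent, although the mice were joined in pairs. With isochronic partners averaged, 0 of 40 tests had an unadjusted exact permutation p under 0.05.

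Mesenteric fat (MAT) and liver of the same mice were used to ask where GAT differed. Against MAT no RNA was called for the difference in any contrast (0% of 3897 each time by limma, with 156, 211, 197 and 55 at an unadjusted p under 0.05 for HA minus IA, HY minus IY, IA minus IY and HA minus HY). The Dlk1-Dio3 list in MAT had a median log2 fold change of -0.79 in IA against IY and 0.90 in HA against IA. Other lists moved in MAT too, so these values are not particular to the locus. In the same 2 contrasts white fat was -1.39 and 1.36, endothelium -1.17 and 1.02 and adipocytes -0.72 and 0.62. Epithelium went the other way (1.33 and -1.03). MiR-540-5p in MAT had a median of 11.1 rpmm in IY (n = 8) and 4.22 in IA (n = 7), and the difference from GAT in the log2 fold change was -0.37 (SE 0.39).

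Against liver, 4 RNAs were called for the difference of IA minus IY (0.104% of 3837) and 0 (0%) in each of the other 3 contrasts. All 4 were Dlk1-Dio3 miRNAs with a lower fold change in GAT, miR-540-5p (difference -1.12, SE 0.25), miR-381-3p (-1.10, SE 0.24), miR-299a-5p (-1.08, SE 0.24) and miR-485-5p (-0.92, SE 0.19), each with an adjusted p of 0.030 by limma. In liver these miRNAs were close to 0, miR-540-5p at 0.112 to 0.695 rpmm in IY and 0.0542 to 0.331 in IA, so that on a scale with a pseudocount of 1 rpmm the room for a change was small. Of 53 listed miRNAs, 40 had an unadjusted p under 0.05 for a lower fold change in GAT (background 2.97%), with a median difference of -0.71 against 0.06 over all RNAs. For miR-342-3p the difference between GAT and liver in HA minus IA was 1.84 (adjusted p 0.28 by limma, SE 0.45), and in liver it was at 13.1 to 81.2 rpmm in HA and 36.7 to 76.9 in IA.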

How the data were processed

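Small RNA was sequenced single-end from frozen organs. The authors mapped and assigned the reads with the miRMaster pipeline (mm10). They deposited a signal per RNA and library in rpmm, each value divided by the mapped reads of its library. A GAT library summed to 1.50e6 to 2.64e6 rpmm, more than its mapped reads, so reads can count for more than 1 RNA. Class shares are shares of this summed signal. A class that takes more reads can still leave fewer for the others. Read counts were recovered from the deposited values of the GAT libraries, taking the smallest value above 0 outside miRNAs as 1 read. With a tolerance of 0.05 reads, 100% of the values of other RNAs and 98.9% of those of miRNAs were whole up to 1000 reads. These counts served for depth and, rounded, for the edgeR test.

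Groups were read from the ages of partners in the labels and equalled the deposited group in all 30 libraries. Of the deposited columns, 734 of other samples were not used. The table held 5248 RNAs, and those of at least 1 rpmm in 10% of the GAT libraries were tested on log2(rpmm + 1) with limma 3.58.1 (R 4.3.3), 4 groups in 1 fit, a moderated spread that follows the level, and Benjamini-Hochberg adjustment over all tested RNAs within a contrast, called at 0.05. The scripts were tested on simulated data. The aging cohort (37 GAT libraries) was fitted apart, and comparisons with mesenteric fat and liver used the mouse as a random block. Class shares used exact permutation tests (scipy 1.17.1). Class and locus came from GENCODE M21 and RefSeq (GRCm38.p6). EdgeR 4.0.16 was an alternative.

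Named RNAs were, per contrast, the called miRNAs of at least 10 rpmm with the largest change (up to 6 in each direction) and 2 of each other class, or the 3 of smallest p where none was called, the 8 miRNAs the study linked with age and miR-29b-3p, added here, and called or most abundant members of each list. Exceptions are named in the text. Members, lists and tests were chosen with earlier results of these data known, and no p was adjusted over a list alone. The name of the HY strain is not reported here.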

Additional observations from a re-analysis of the deposited data

Results flagged for a closer look

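A check for a library far from the others flags about 5% of groups where these are independent and their values normally spread. The groups checked here shared libraries and RNAs, so 5% is not their chance rate. Of 140 groups of 7 or 8 libraries, 22 had such a library, most of them at the high end. In IY these were miR-541-5p in mouse 15A (74.6 rpmm), miR-411-5p and miR-1895 in 16A (308 and 11.9 rpmm) and the summed liver list in 15B (2224 rpmm). In HY they were miR-342-3p in 20B (172 rpmm), AF357428 in 11B (192 rpmm), the low miR-540-5p in 12B (3.17 rpmm), and in 14B miR-196b-5p (1485 rpmm), miR-487b-3p (5.59 rpmm), miR-133a-3p (1885.0 rpmm) and the summed skeletal and heart muscle list (3306 rpmm). HY 14B thus carried muscle markers together with high miR-196b-5p.

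In HA, mouse 14A was highest for miR-21a-3p (203 rpmm) and miR-223-3p (2498 rpmm). Mouse 1A was highest for miR-149-5p (190.3 rpmm), miR-467e-5p (129 rpmm), miR-467c-5p (36.5 rpmm), miR-184-3p (24.5 rpmm), the summed epithelium list (24030.4 rpmm) and the summed liver list (17301 rpmm). In IA, mouse 6A was highest for miR-467c-5p (37.3 rpmm), miR-1895 (22.1 rpmm) and the summed epithelium list (37505 rpmm).

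The fold change of IA against IY differed between GAT and liver, by the test of the difference, for miR-540-5p (-1.12), miR-381-3p (-1.10), miR-299a-5p (-1.08) and miR-485-5p (-0.92 on the log2 scale). These miRNAs were close to 0 in liver, which left little room for a change there, and 0 RNAs were called with median-ratio scaling.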

How the results depend on the processing

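Counts of called RNAs changed more than the fold changes did. For IA minus IY the 30 calls became 0 with median-ratio scaling, with a fit of the 2 groups only, with partners averaged, without pairs 19 and 20 (C57BL/6JN), with IY of 4.5 months alone, by edgeR, with pool as a covariate and with the epithelium sum as a covariate, 1 with IY of 3 months alone, 3 without the high-epithelium libraries, 5 with a filter at a mean of 10 rpmm, and 314 by a ratio past 3/2 with an unadjusted p under 0.05. Leaving out 1 pair gave 0 to 36, and 0 without pair 6, 9, 15, 17 or 19, 6 without pair 10, 11 without pair 5 and 15 without pair 11. For HA minus IA the 0 calls became 24 with miRNAs alone, 1 with the epithelium covariate, 5 without 1A and 7A and 250 by the ratio rule, and 0 to 12 leaving out 1 pair. HY minus IY gave 1 call with IY of 3 months alone and 43 by the ratio rule, and 0 leaving out any pair. HA minus HY gave 0 with median-ratio scaling, the mean filter, 2 groups only, edgeR and without high-epithelium libraries, 2 without pairs 19 and 20 and with the epithelium covariate, 11 without 1A and 7A and 105 by the ratio rule, and 1 to 5 leaving out 1 pair (5 without pair 1, 4 without pair 20). The difference of contrasts gave 3 by edgeR. In the aging cohort the 1 call became 0 in males alone and with plate as a covariate, 17 with sex, 13 with median-ratio scaling, and 0 to 26 leaving out 1 library (26, 9, 0 and 0 without libraries 35, 28, 1 and 54 of 21 months, and 2, 0, 13, 0 and 4 without libraries 17, 36, 49, 21 and 16 of 3 months). The GAT minus liver difference of IA minus IY gave 0 with median-ratio scaling. The epithelium settings and the removal of 1A and 7A were chosen after the data were seen, and the causes were not tested.

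The replicate block took HA minus HY from 1 call to 0; the pair numbers share animals' circulation, but only 1 of 7 pairs correlated over 0.1 and 1 of 7 HA libraries was closest to its own partner. Partners of isochronic pairs correlated over 0.1 in pairs 10, 15, 16 and 19 (r 0.47, 0.36, 0.28 and 0.29) and not in pairs 17, 6, 7 and 9 (r -0.31, -0.59, -0.47 and -0.044), and IA minus IY gave 0 calls with partners averaged and 31 with the pair as a random block. Over the 12 called named results, 202 of 414 alternative values kept the call, 212 lost it and 0 changed sign.

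Uncalled log2 fold changes of IA minus IY near 0 changed sign. With median-ratio scaling these were miR-21a-5p (-0.075), miR-29b-3p (-0.14), miR-29a-3p (-0.074) and miR-29c-3p (-0.077), by edgeR the same 4 (-0.018, -0.15, -0.039 and -0.067), and with IY of 4.5 months alone the same 4 (-0.18, -0.36, -0.18 and -0.30) and miR-34a-5p (-0.040). MiR-29b-3p was -0.0054 with miRNA-read scaling and -0.035 with pool, and miR-29c-3p -0.049 with pool. MiR-26a-5p was 0.0044 with IY of 3 months alone. Without high-epithelium libraries miR-26a-5p was 0.068, miR-29b-3p -0.092, miR-93-5p 0.16, miR-467e-5p -0.052 and miR-200c-3p -1.44, and with the covariate miR-200c-3p was -0.067. Let-7c-5p was 0.041 without pairs 19 and 20, and 0.0032 without 1A and 7A, where miR-93-5p was 0.049. Leaving out 1 pair gave -0.13 to 0.18 for miR-21a-5p, -0.27 to 0.15 for miR-29b-3p, -1.09 to 0.20 for miR-122-5p, -0.14 to 0.17 for miR-29a-3p, -0.19 to 0.22 for miR-29c-3p, -0.053 to 0.31 for miR-34a-5p, -0.18 to 0.041 for let-7c-5p and -0.44 to 0.095 for miR-93-5p.

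Depth limits RNAs near 1 rpmm, such as miR-592-5p, to few reads. HY cannot be told apart from its strain, and 7 of 8 IY libraries came from 1 pool.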
